A study of Mus musculus with 16 samples.

Results

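The 9 genes Neurod1, Insm1, Prox1, Nkx2-1, Foxa2, Sox2, Pou2f3, Yap1 and Rest, which encode lineage regulators used to describe subtypes of small cell lung cancer, were chosen by gene symbol, and all 9 were found among the 17655 genes listed. RNA sequencing had been done on mouse preSC, precancerous cells of this cancer, which the labels describe as Chga-positive neuroendocrine cells of the lung, null for Rb1 and Trp53 and carrying 1 null allele of Rbl2. All cells shared this genotype and received doxycycline at 1 µg/mL for 48 hours; 8 samples came from cells infected with an empty lentivirus ("empty") and 8 from cells infected with a lentivirus carrying Wnt5a ("Wnt5a"). The promoter driving Wnt5a and whether a line is 1 clone are not given in the sources used here.

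Small cell lung cancers are grouped by the transcription factor or coactivator that dominates them. NEUROD1 marks a neuroendocrine form, POU2F3 marks a form resembling tuft cells, and YAP1 is found in forms with few neuroendocrine features. INSM1 and PROX1 accompany the neuroendocrine state, NKX2-1 and FOXA2 are factors of lung and foregut endoderm, SOX2 is a factor of stem and neural progenitor cells, and REST silences neuronal genes in cells that are not neurons.

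Samples 1 to 4 of each group differed from one another by little more than sampling noise, as did samples 5 to 8 (normalised read count, the deposited value, which is the read count divided by a size factor of the sample), so each set of 4 was averaged and counted as 1 sample, termed library A (1 to 4) and library B (5 to 8). The index of dispersion was 0.987 to 1.05 in the 24 pairs inside a library, of which 14 had a chi-square p under 0.05, and 5.23 to 5.44 in the 32 pairs between libraries of a group. Errors below are the SD of n = 2 libraries per group. The 4 libraries held 30220749 to 35315408 reads. Nothing in the labels says that samples came from separate cultures, so the p-values measure only the spread between these libraries, which may be technical. Wnt5a itself stood at 122 ± 31.4 without and 1279 ± 325 with the Wnt5a lentivirus, a log2 difference of 3.38 (limma adjusted p = 0.0010). All 20 neuroendocrine effector genes looked up, Chga among them, were above the filter on low values (a mean of 10). So were 12357 of all 17655 genes listed, and the labelled cell type was not tested.

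The promoters of 4 of these genes are shown to set an abundant factor beside a scarce one; RefSeq entries (GRCm38.p6) were matched for 6 of the 9 genes. Each line gives the 250 bases before a transcription start, 5′ to 3′ on the gene's strand, with CG dinucleotides in capitals; the deposited files name no build.
Prox1 chr1:190170828-190171077 (-): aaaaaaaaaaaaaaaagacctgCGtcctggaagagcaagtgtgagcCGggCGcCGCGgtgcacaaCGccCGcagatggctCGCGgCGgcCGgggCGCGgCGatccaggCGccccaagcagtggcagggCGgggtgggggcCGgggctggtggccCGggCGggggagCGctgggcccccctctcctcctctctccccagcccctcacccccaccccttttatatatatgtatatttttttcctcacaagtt
Sox2 chr3:34649745-34649994 (+): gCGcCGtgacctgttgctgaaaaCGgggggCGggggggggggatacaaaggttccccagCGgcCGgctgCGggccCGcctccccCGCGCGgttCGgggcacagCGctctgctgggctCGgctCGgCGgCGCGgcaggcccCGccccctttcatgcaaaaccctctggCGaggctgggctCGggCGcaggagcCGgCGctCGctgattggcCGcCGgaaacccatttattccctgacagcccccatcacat
Nkx2-1 chr12:56536909-56537158 (-): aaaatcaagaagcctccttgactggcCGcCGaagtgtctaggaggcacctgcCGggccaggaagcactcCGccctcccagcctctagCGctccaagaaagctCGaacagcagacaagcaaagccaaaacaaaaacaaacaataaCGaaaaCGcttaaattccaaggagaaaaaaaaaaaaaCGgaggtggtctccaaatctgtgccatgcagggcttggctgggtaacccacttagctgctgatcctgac
Yap1 chr9:8004597-8004846 (-): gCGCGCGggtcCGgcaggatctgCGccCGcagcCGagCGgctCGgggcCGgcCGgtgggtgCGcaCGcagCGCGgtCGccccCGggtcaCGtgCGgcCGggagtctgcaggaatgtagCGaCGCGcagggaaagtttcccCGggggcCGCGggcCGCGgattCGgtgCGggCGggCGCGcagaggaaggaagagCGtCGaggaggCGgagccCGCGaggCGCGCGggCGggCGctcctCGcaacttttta

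The Yap1 window held 44 CG dinucleotides, at percentile 99.5 of the 32851 promoter entries, and Yap1 was scarce in these cells. The Nkx2-1 window held 9, above 59.7% of the entries, and the gene was abundant. Sox2 (27) and Prox1 (20) lay between them, and the window of Neurod1, a gene with almost no reads, held 22. The median entry held 6. A second Prox1 window held 11, and the 3 windows of Foxa2 held 6, 13 and 20. The E-box CAGATG occurred once in the Prox1 window, 179 bases before the start, and in 14.4% of all entries on either strand. The TEAD motif GGAATG occurred once in the Yap1 window, 141 bases before the start, and in 12.6% of all entries. The E-box CAGCTG, the forkhead motif TGTTTAC and the SOX motif ACAATG, searched on both strands, occurred in none of the 4 windows printed; TGTTTAC occurred in 3.17% and ACAATG in 10.7% of all entries, and CAGCTG in 13%. A match is a run of letters and not a site of binding.

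The 9 genes fell into 3 ranges of expression. Insm1, Foxa2, Nkx2-1, Prox1 and Sox2 were abundant, Yap1 was scarce, and Neurod1, Pou2f3 and Rest had at most 3 reads in any library. Levels of different genes were compared as normalised read count per kb of the longest GENCODE M21 transcript. Insm1, which encodes a zinc-finger repressor that promotes neuroendocrine differentiation, was highest of the 9, at 1643 per kb in the empty group and 1590 per kb with Wnt5a. This level lay above 98.5% of the 12296 tested genes with a length. Foxa2 followed at 1099 and 1036 per kb and Nkx2-1 at 978 and 1075 per kb. Prox1 was at 672 and 586 per kb and Sox2 at 646 and 581 per kb, above 93.7% and 93.5% of tested genes. Yap1 was at 4.08 and 4.42 per kb, above only 2.42% of tested genes.

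**Figure D1:**
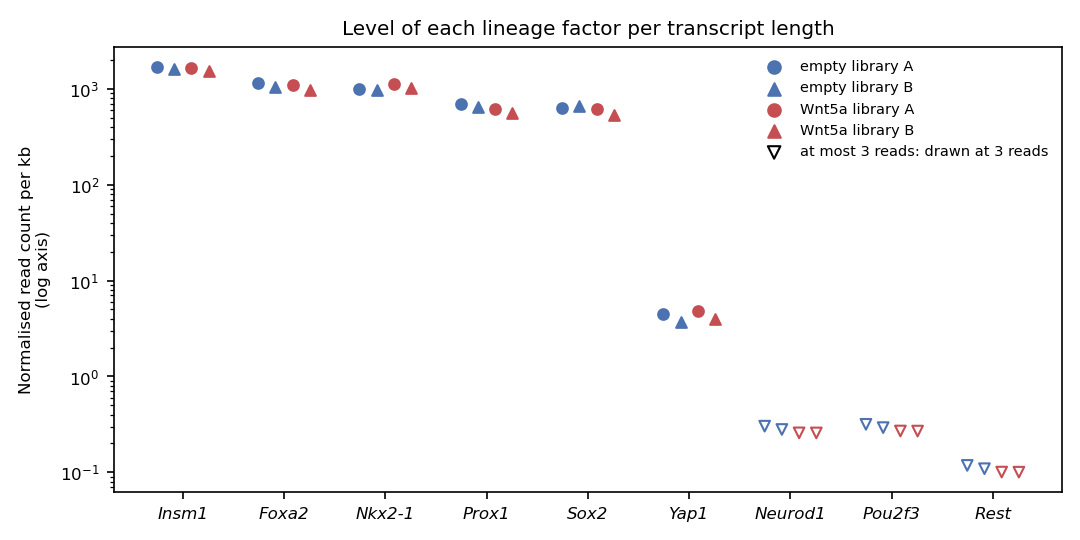
Normalised read count per kb of transcript (log axis) for the 9 lineage factors in the 4 libraries; filled symbols are library values and open triangles mark libraries with at most 3 reads, drawn at the level of 3 reads. The 5 abundant factors lie between 537 and 1684 per kb, Yap1 between 3.71 and 4.85, and Neurod1, Pou2f3 and Rest at or under the floor.

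Some neighbours in this order could not be separated. In the Wnt5a libraries the ranges of Nkx2-1 (1024 to 1125 per kb) and Foxa2 (965 to 1107) overlapped, and in the empty libraries Foxa2 (1053 to 1145) lay above Nkx2-1 (968 to 987). Prox1 and Sox2 overlapped in both groups. The place of Prox1 rested on the transcript chosen, and its longest transcript has 7913 bases. With the median length of its protein-coding transcripts its level over all libraries was 1516 per kb. That is above both endoderm factors and near Insm1, at 1616 per kb by either length. Whether the libraries of Prox1 and Insm1 overlapped at that length was not examined. Prox1 ranked close to Sox2 only with the longest transcript.

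Insm1 was steady across the study. In the 8 empty samples its normalised read count had a lowest value of 4855, a median of 5053 and a highest of 5343. In the 8 Wnt5a samples these values were 4665, 4930.1 and 5172. The groups overlapped, and in each group library A (5220.4 in empty, 5109.8 in Wnt5a) lay above library B (4966 and 4747). Wnt5a and empty libraries differed by -0.05 on the log2 scale, Wnt5a minus empty (SE 0.08; limma adjusted p = 0.855), a change of -3.28% with a 95% interval from -15.5% to 10.7%.

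Prox1 encodes a homeodomain protein of neural, lymphatic and endocrine lineages. Empty samples held values between 5036 and 5607 (median 5366), whereas Wnt5a samples held values between 4329 and 4885 (median 4685). Every Wnt5a sample lay below every empty sample, which made Prox1 the 1 member of the 6 tested whose samples did not overlap between groups; the same held for 12.4% of all 12357 genes tested, in either direction. The library means were 5496 and 5138 in empty and 4855 and 4426 in Wnt5a. On the log2 scale Prox1 differed by -0.20 (SE 0.09, with an adjusted p of 0.335 in limma), or -12.8% with an interval from -24.3% to 0.584%, so the difference did not pass the threshold. Prox1 lies on chromosome 1, where the median of 689 tested genes was -0.17, and with chromosome medians removed its log2 difference was -0.02 (limma adjusted p = 0.953).

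For Sox2, the lowest, median and highest empty samples were at 1287, 1327 and 1380.3, against 1098, 1183 and 1342 with Wnt5a. The groups overlapped because of Wnt5a library A (1284), which lay near the empty libraries (1307 and 1350.5), whereas Wnt5a library B was at 1105. All 4 samples of library B lay below every other sample of either group. Sox2 differed by -0.16 on the log2 scale (SE 0.09, adjusted p = 0.487 in limma), or -10.3% with an interval from -22.9% to 4.27%. Without Wnt5a library B the log2 difference was -0.05. Sox2 lies inside the long non-coding gene Sox2ot, which had 89 to 99 reads per library against 4715 to 5467 for Sox2; strand use is not given in the sources used here.

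The 2 endoderm factors differed in sign, and neither passed the threshold. Nkx2-1, the master factor of lung and thyroid epithelium, had a median of 2730.4 over the empty samples (2665 to 2896) and of 3044 over the Wnt5a samples (2814 to 3194). Its libraries did not overlap, at 2774 and 2719 in empty against 3159 and 2877 in Wnt5a, but its samples did. Nkx2-1 differed by 0.13 on the log2 scale (SE 0.08, adjusted p = 0.496 in limma), or 9.77% with an interval from -3.71% to 25.2%. Foxa2, a forkhead factor that opens chromatin in endoderm, had a median of 2325 (2191 to 2514) over the empty and of 2185 (2034 to 2445) over the Wnt5a samples. Its libraries were interleaved, with library A above library B in each group (2436 and 2241 in empty, 2355 and 2055 in Wnt5a). Foxa2 differed by -0.09 on the log2 scale (SE 0.09, adjusted p = 0.749 in limma), or -5.85% with an interval from -19.3% to 9.85%.

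**Figure D2:**
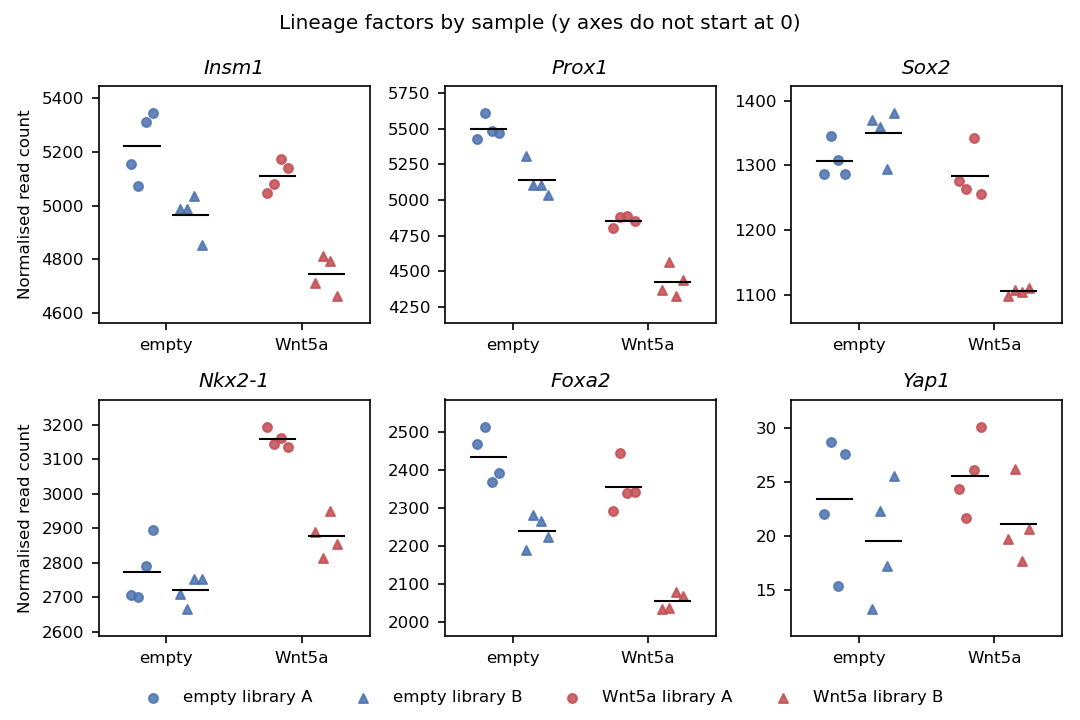
Normalised read count of the 6 tested lineage factors in each sample, by group; circles are samples of library A, triangles samples of library B, and bars library means. The y axes do not start at 0. Only Prox1 has every Wnt5a sample (4329 to 4885) below every empty sample (5036 to 5607), and library B of Wnt5a is the lowest library for Insm1, Prox1, Sox2 and Foxa2.

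Yap1, the coactivator held in check by the Hippo kinases, was read at 13 to 32 reads per sample. Its library totals were 85 and 77 reads in empty and 109 and 90 reads in Wnt5a. Its normalised read count had a median of 22.2 over the empty samples (13.3 to 28.8) and of 23.1 over the Wnt5a samples (17.7 to 30.1), with wide overlap. Yap1 differed by 0.11 on the log2 scale (SE 0.21, adjusted p = 0.871 in limma), or 7.97%. Its interval, from -23.1% to 51.6%, was the widest of the 6, so a change of moderate size may have gone undetected. How much of that width came from low counts and how much from the small number of libraries was not tested.

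Neurod1, Pou2f3 and Rest were too low to test. Neurod1, a bHLH factor of neurons, was at 0 reads in the first empty library (A) and at 3 in each of the others, with at most 2 in any sample. Pou2f3, the POU-domain factor of tuft cells, had 1 read among 133231430, in empty library B. Rest, the repressor of neuronal genes, had 2 reads, both in empty library B. A count of 0 in empty library A allows up to 3 reads, which is 3 of 30220749. These limits cover counting error only, and both groups lay at or under them, so no fold difference is given. Neurod1 shares exon bases with the neighbouring gene Cerkl (201 bases at most), and how reads in shared bases were counted is not given in the sources used here.

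None of the 6 tested factors passed the limma threshold of an adjusted p under 0.05, against 2.06% of all genes tested (1.38% higher and 0.672% lower in Wnt5a). The number with an unadjusted p under 0.05 was 0 in limma, 0 in edgeR and 1 (Prox1) in DESeq2, and 0 passed after adjustment with either of the latter. In limma 1988 of all 12357 genes tested had an unadjusted p under 0.05, which is the base for the limma counts of this kind below. That base was not counted for edgeR and DESeq2. After adjustment 254 of all genes tested passed in limma, 246 in edgeR and 538 in DESeq2, the bases for the adjusted counts below. Both libraries of one group lay beyond both of the other for 3 of the 6 (Prox1, Nkx2-1 and Sox2), as for 44.2% of all genes tested, a share close to that of the factors. The median log2 difference of the 6 was -0.07, with 2 positive and 4 negative differences, and that of all genes tested was 0.0026. All 6 differences lay inside the range from the 5th to the 95th percentile of all genes, -0.36 to 0.39. In bulk samples fewer cells with a factor and less RNA per cell cannot be told apart.

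**Figure D3:**
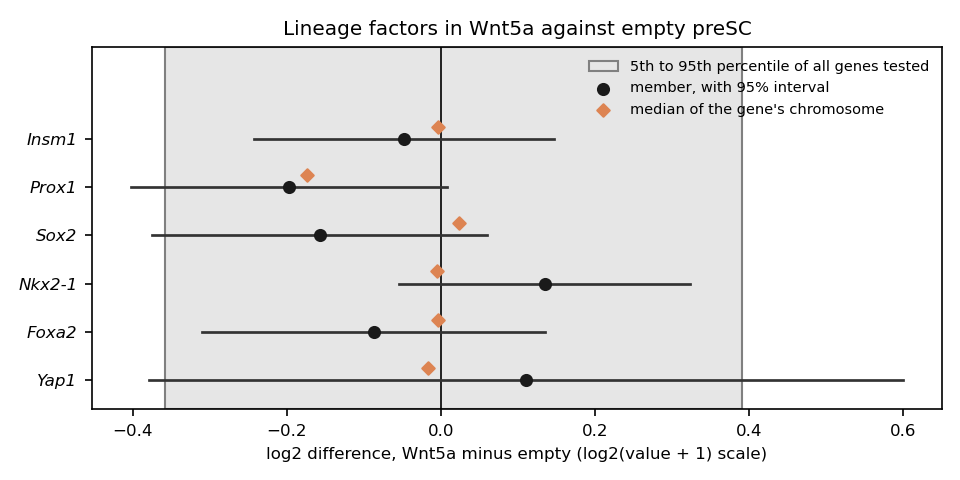
Log2 difference, Wnt5a minus empty, of the 6 tested lineage factors (black points) with 95% limma intervals (lines); diamonds give the median of the tested genes on the same chromosome and the shaded band the 5th to 95th percentile of all genes tested (-0.36 to 0.39). Every interval includes 0, and the diamond of Prox1 (-0.17) lies next to its point (-0.20).

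Of 25 other neuroendocrine and neural transcription factors, 21 were listed and 14 tested, with a median log2 difference of 0.05. In limma 2 rose and 0 fell, against 2.06% of all genes tested past the threshold in either direction. DESeq2 called 2 higher and 2 lower, against 538 of all 12357 genes tested. The 2 lower were Hes6 and Myt1l, named here after their values were seen. Hes6, for a bHLH factor of the Hes family, was at 2748 ± 15.5 and 2074 ± 159 (adjusted p = 0.066 in limma and 0.0032 in DESeq2). Its log2 difference was -0.41, and it lies on chromosome 1, where the median of the tested genes was -0.17. Myt1l, for a zinc-finger factor of neurons, was at 195 ± 26.3 and 126 ± 11.3 (adjusted p = 0.078 in limma and 0.0094 in DESeq2). Sox21, a SOXB2 factor of neural progenitors, rose from 2.48 and 6.11 in the empty libraries to 61.3 and 75.0 in the Wnt5a libraries, a log2 difference of 3.79 (SE 0.35; limma adjusted p = 0.0037). Neurog3, the bHLH factor that initiates endocrine differentiation in pancreas and gut, rose from 1.38 and 5.09 to 33.1 and 33.5, a log2 difference of 3.17 (SE 0.44; limma adjusted p = 0.020). The empty values of Neurog3 rest on 5 and 20 reads and those of Sox21 on 9 and 24. Both genes passed the filter, a mean of 10 over all samples, only through their Wnt5a values, so a difference was a condition of their being tested. Sox21 had an adjusted p of 0.040 in limma without the filter. Neurog3 was not past the threshold without the filter on low values (adjusted p = 0.093) or without the trend (0.055). Neurog3 averaged 33.3 ± 0.291 in the Wnt5a libraries. Sox1, a SOXB1 relative of Sox2, was at 2552 ± 165 and 2614 ± 136 (limma adjusted p = 0.905).

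Of the 20 neuroendocrine effector genes, all were tested, 1 fell and 0 rose, with a median log2 difference of -0.12. Scg2, which encodes secretogranin II, fell from 4109 ± 396 to 2468 ± 6.84, a log2 difference of -0.73 (SE 0.09; limma adjusted p = 0.012), and lies on chromosome 1, with its median of -0.17. With chromosome medians removed its log2 difference was -0.56 (limma adjusted p = 0.035). Without the trend or without the filter on low values its adjusted p was 0.054 and 0.056. The secretory-granule protein gene Chga, the marker in the label, was at 4043 ± 462 and 3403 ± 561 (limma adjusted p = 0.428). Ddc, for aromatic amino acid decarboxylase, was at 10082 ± 451 and 9724 ± 408 (limma adjusted p = 0.854). Calca, for calcitonin and CGRP, was at 8248 ± 348 and 6657 ± 455 (limma adjusted p = 0.154).

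Most listed genes of the tuft programme were, like Pou2f3, below the filter on low values, though not all were as scarce as Pou2f3. Of all 17655 genes listed, 5298 were below that filter. Of 20 tuft genes, 18 were listed and 6 tested, and the 12 listed genes not tested reached at most 3.31 in any library; 1 gene fell, 0 rose and the median log2 difference was -0.23. Dclk1, a microtubule-associated kinase gene used as a tuft marker and also expressed in neurons, fell from 195 ± 40.0 to 106 ± 3.14, a log2 difference of -0.86 (SE 0.15; limma adjusted p = 0.047). This call was lost without Wnt5a library A (adjusted p = 0.063) or B (0.103), without the filter (0.137), with a minimum of 50 (0.072) and without the trend (0.093). Kit, which encodes the receptor of stem cell factor, was at 1376 ± 89.8 and 1224 ± 38.1 (limma adjusted p = 0.375). Vil1, for the microvillus protein villin, was at 266 ± 42.3 and 215 ± 5.40 (limma adjusted p = 0.307).

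Most listed components of the Hippo pathway around Yap1 were above the filter on low values, as were 12357 of all 17655 genes listed. Of 20 components, 19 were listed and 15 tested; 0 passed (0 with an unadjusted p under 0.05 in limma, edgeR and DESeq2), and the median log2 difference was 0.03. Stk4, a Hippo kinase gene, was at 1984 ± 74.0 and 2035 ± 28.6, and the upstream regulator Nf2 at 1872 ± 109 and 1704 ± 0.205, with limma adjusted p of 0.880 and 0.470; Nf2, like Ddc, lies on chromosome 11, where the median of 1020 tested genes was 0.17. Wwtr1, which encodes TAZ, was the component not found among the genes listed, so no level is given for it. Of 19 YAP and TEAD target genes, 18 were listed and 10 tested, with a median of -0.16. After adjustment 0 passed in limma and edgeR and 2 in DESeq2, against 254, 246 and 538 of all 12357 genes tested. At an unadjusted p under 0.05 the numbers were 4, 4 and 2, against 1988 of all genes tested in limma. Cyr61 and Ctgf, the targets most often used to read YAP activity and named here after their values were seen, had 8 and 4 reads in all samples together. Arhgef17 and Rbms3, the most abundant of this list, were at 1733 ± 83.4 and 728 ± 184 in empty libraries and at 1660 ± 25.8 and 734 ± 71.7 in Wnt5a libraries (limma adjusted p = 0.776 and 0.956).

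Rest itself had 2 reads. Most of its listed partners and targets were above the filter, as were 12357 of all 17655 genes listed, and a link to Rest was not tested. All 12 corepressors and splicing regulators were tested; 1 rose, 0 fell, and the median log2 difference was -0.01. Rcor2, which encodes a CoREST scaffold of the LSD1 complex, rose from 108 and 111 to 225 and 208, a log2 difference of 0.98 (SE 0.10; limma adjusted p = 0.0066). Rcor2 lies on chromosome 19, where the median of 412 tested genes was 0.36; with chromosome medians removed its log2 difference was 0.62 (adjusted p = 0.045). Kdm1a and Hdac1, the enzymes of that complex, were at 2329 ± 171 and 2579 ± 78.0 in empty and at 2392 ± 74.0 and 2569 ± 65.0 in Wnt5a libraries (limma adjusted p = 0.889 and 0.980). Srrm4, a neural splicing factor that acts on Rest transcripts, was at 592 ± 58.0 and 504 ± 5.15 (limma adjusted p = 0.291).

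Of 20 genes that Rest is known to repress, 19 were listed and 17 tested; 0 rose, 1 fell, and the median log2 difference was -0.15. Negative differences numbered 15 of 17 here, 17 of 20 among the neuroendocrine effectors and 6095 of 12357 over all genes tested. These genes were read in the same 2 libraries per group, so their signs are not independent. With a library left out, the median ran from -0.14 to -0.04 for the Rest targets and from -0.18 to -0.09 for the effectors. Scn3b, which encodes a beta subunit of sodium channels, fell from 50.5 and 44.1 to 24.7 and 24.1, a log2 difference of -0.92 (SE 0.16; limma adjusted p = 0.048). That call was lost with a pseudocount of 0.1 (adjusted p = 0.050), with chromosome medians removed (0.056), without the filter (0.126) and without Wnt5a library A (0.129) or B (0.179). The adhesion receptor gene Celsr3 was at 2140.4 ± 41.4 and 2053 ± 27.3 and the stathmin gene Stmn3 at 1704 ± 161 and 1532 ± 119 (limma adjusted p = 0.770 and 0.534).

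**Figure D4:**
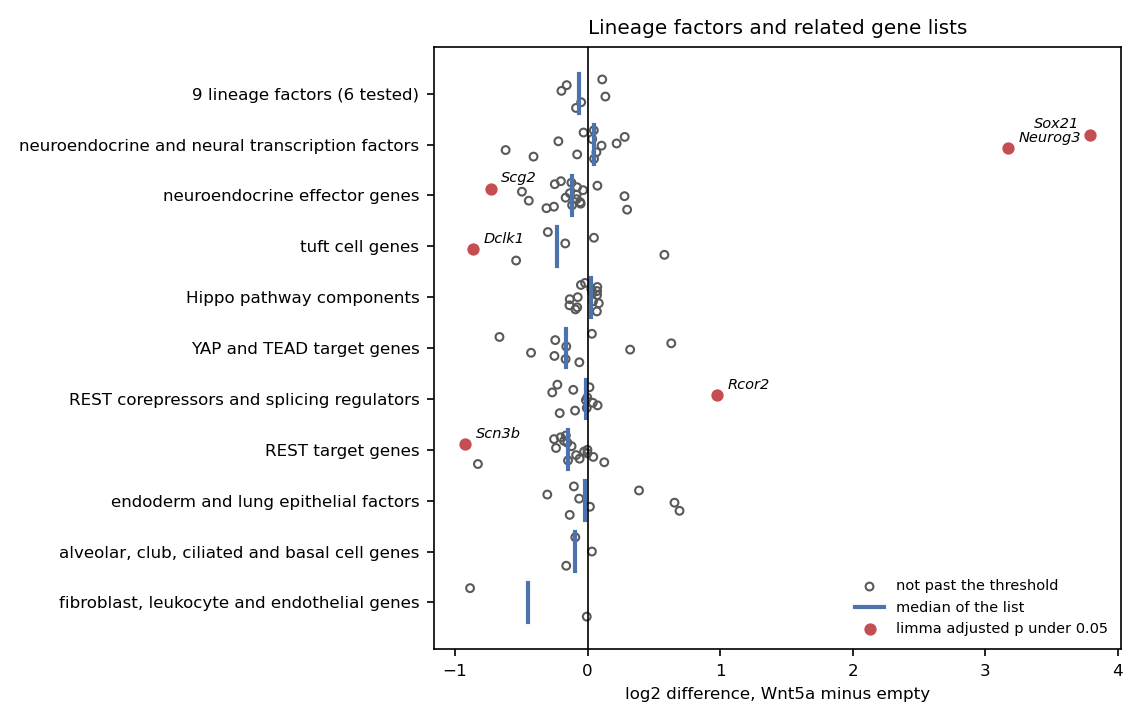
Log2 difference, Wnt5a minus empty, of every tested gene in the lineage factors and the 10 related lists; open circles did not pass, red circles passed an adjusted p under 0.05 in limma and are named, and blue bars are list medians. The 6 lineage factors sit between -0.20 and 0.13. Sox21 and Neurog3 stand at 3.79 and 3.17, and both passed the filter on low values only through their Wnt5a values.

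Among other endoderm and lung epithelial factors, 15 of 18 were listed and 8 tested, with a median log2 difference of -0.02. After adjustment 0 passed in limma and edgeR and 1 in DESeq2, against 254, 246 and 538 of all 12357 genes tested. At an unadjusted p under 0.05 the numbers were 3, 3 and 2, against 1988 of all genes tested in limma. Foxa1, the close relative of Foxa2, was at 3935 ± 225 and 3982 ± 121 (limma adjusted p = 0.951), and the epithelial factor Elf3 at 474 ± 88.1 and 431 ± 77.0 (limma adjusted p = 0.780). Most of the mature lung markers listed were below the filter on low values, against 5298 of all 17655 genes listed. Of 16 alveolar, club, ciliated and basal genes, 10 were listed and 3 tested, 0 passed in limma, edgeR and DESeq2 (0 at an unadjusted p under 0.05 in each), and Abca3, a lipid transporter gene, made up most of their summed level (1593 and 1369 in empty, 1338 and 1314 in Wnt5a). Abca3 was at 1429 ± 163 and 1274 ± 18.3, and the ciliogenesis factor gene Foxj1 at 23.9 ± 0.331 and 22.4 ± 0.802. Of 11 fibroblast, leukocyte and endothelial genes, 8 were listed and 2 tested, 0 passed in limma and edgeR and 1 (Dcn) in DESeq2, with 1 at an unadjusted p under 0.05 in each, and their levels summed to 617 and 369 in the empty group against 257 and 262 with Wnt5a. Nearly all of it was Dcn, for the matrix proteoglycan decorin, at 468 ± 181 and 243 ± 3.35 (limma adjusted p = 0.131); Cd68 was at 10.9 ± 2.20 and 10.8 ± 0.993. The part of these markers in the results above was not tested.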

How the data were processed

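RNA was sequenced in 16 samples, 8 empty and 8 Wnt5a. The deposited values are a normalised signal per gene, 1 file per sample; the submitters' processing notes name TopHat, Bowtie, HTSeq and DESeq2, while versions, build, annotation and strand use are not given in the sources used here. Every value was a whole multiple of 1 step per sample (100% of values, tolerance 1e-06), which gave back the reads, 7526676 to 8859862 per sample.

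Samples 1 to 4 and 5 to 8 of each group were averaged as 2 libraries. log2(value + 1) was fitted with limma 3.58.1 (R 4.3.3, trended eBayes) on the 12357 genes with a mean of at least 10, with Benjamini-Hochberg adjustment over all of them and a threshold of 0.05; differences are on this scale, where those of low genes are compressed. The script was run on simulated counts whose changes were larger than the differences of the tested members. That run gives no detection rate for differences of the members' size. Count tests on the recovered reads used edgeR 4.0.16, which called 246 genes, and DESeq2 1.42.0, which called 538. Transcript lengths came from GENCODE M21 and promoters from RefSeq GRCm38.p6; 17620 of 17655 symbols matched a chromosome. The members and the 10 gene lists were chosen with earlier results of these data known. Named genes are, per list, up to 3 past the threshold, the 2 most abundant, and Chga, Wwtr1, Rcor2 and Srrm4 always; 1 gene that the rule names is not reported here. Other alternatives were the pseudocount, filter, trend, scaling, replicate block, all 16 samples, chromosome medians and leaving out each library.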

Additional observations from a re-analysis of the deposited data

How the results depend on the processing

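No member passed under another pseudocount, filter, trend or scaling, with chromosome medians removed, in edgeR or DESeq2, or with any 1 library left out. Taking all 16 samples as replicates called 3 members, Prox1 (log2 difference -0.20), Nkx2-1 (0.13) and Sox2 (-0.16), but treats samples that differ by little more than sampling noise as separate. With a library left out, the difference ran from -0.10 to 0.0051 for Insm1, -0.26 to -0.13 for Prox1, 0.067 to 0.20 for Nkx2-1, -0.19 to 0.011 for Foxa2, -0.27 to -0.049 for Sox2 and -0.023 to 0.24 for Yap1. The sign turned without Wnt5a library B for Insm1 (0.0051) and Foxa2 (0.011), and for Yap1 without empty library B (-0.013) or Wnt5a library A (-0.023); the cause was not tested. Where a library was left out, the lone one was assumed to vary like the other group. Without the filter all 9 members were tested and 0 passed; at 3 reads or fewer per library no difference is given for Neurod1, Pou2f3 and Rest. With the median length of coding transcripts, Prox1 was at 1516, Nkx2-1 at 1141 and Yap1 at 5.45 per kb.

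The number of all genes past the threshold was 254; it was 146 without the filter, 102 with a minimum of 50, 158 without the trend, 538 in DESeq2 and 4377 over all 16 samples, and 138 to 1098 with a library left out (138 without Wnt5a library B, 166 without Wnt5a library A, 493 without empty library A and 1098 without empty library B).

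Libraries A of the 2 groups share sample numbers 1 to 4 and libraries B 5 to 8, but no label says that a number marks a shared batch; across 12357 genes the deviations of libraries A correlated with r = 0.44. With the replicate block 2095 genes and 1 member passed, Prox1 (log2 difference -0.20, limma adjusted p = 0.023). With the block over all 16 samples 6012 genes and 5 members passed, Insm1 (-0.0479), Prox1 (-0.20), Nkx2-1 (0.13), Foxa2 (-0.0869) and Sox2 (-0.16). In the order block, all 16 samples, and all 16 with block, the lists gave 5 (3 higher, 2 lower), 7 and 10 neuroendocrine and neural factors, 8, 15 and 17 neuroendocrine effectors, 2, 4 and 4 tuft genes, 4, 8 and 9 YAP targets, 4, 6 and 7 REST corepressors, 5, 10 and 11 REST targets, 3, 4 and 6 endoderm factors, and 1, 1 and 1 fibroblast, leukocyte and endothelial genes. Without and with the block over all 16 samples, 2 and 3 Hippo genes and 1 and 1 alveolar, club, ciliated and basal genes passed.

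The neuroendocrine and neural factors past the threshold numbered 1 without the filter, 0 with a minimum of 50 (Sox21 and Neurog3 then go untested), 1 without the trend and 4 in DESeq2 (2 higher, 2 lower), and 2 to 5 with a library left out. The effectors numbered 0 without the filter, 0 without the trend, 4 in DESeq2 and 1 to 2 with a library left out. Tuft genes numbered 0 without the filter, with a minimum of 50 or without the trend, and 0 to 3 with a library left out. REST targets numbered 0 with a pseudocount of 0.1, a minimum of 50 or chromosome medians removed, 2 in DESeq2, and 0 to 2 with a library left out. DESeq2 called 2 YAP targets, 1 endoderm factor and 1 fibroblast gene, and leaving out a library gave 0 to 2, 0 to 2 and 0 to 1.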
